A study of Mus musculus with 29 samples.

Results

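Ubiquitin-conjugating enzyme genes were followed through the growth and maturation of mouse oocytes and into the zygote, in females with and without a conditional knockout of the G-quadruplex helicase gene Dhx36, as their labels state it. The members were all genes of the deposited count table whose symbol starts with Ube2 and a further letter, without pseudogene symbols holding -ps, and with at least 100 counts over the 29 libraries. Of 49997 gene symbols, 42 matched the name, 3 were left out as pseudogenes and 4 for a total under 100 counts, which left 35 members. Just outside the limit were Ube2l6, Ube2d2b, Ube2dnl2 and Ube2nl, with totals of 10, 11, 14 and 53 counts. Just inside it were Ube2ql1, Ube2uos and Ube2dnl1, with 118, 427 and 691 counts. All 35 members passed the filter on low counts and were tested. Not every member codes for a conjugating enzyme: Ube2uos is annotated as a non-coding antisense transcript of Ube2u, and Ube2cbp codes for a protein that binds UBE2C. Ube2v1 and Ube2v2 code for partners of the enzyme UBC13.

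Poly(A) RNA was measured by Smart-seq2, a full-length cDNA method for small numbers of cells, in tubes of 10 oocytes or zygotes. The libraries labelled WT came from Dhx36fl/fl females and those labelled CKO from Dhx36fl/fl females that also carried Zp3-Cre, a recombinase driven by a promoter active in growing oocytes, so both genotypes carried the floxed alleles. At 2 weeks of age, growing oocytes were taken (GO 2W, 3 WT and 3 CKO libraries). At 3 weeks, there were fully grown oocytes (FGO 3W, 2 and 2), oocytes at metaphase II (MII 3W, 3 and 4) and zygotes (zygote 3W, 3 and 3), and at 4 weeks fully grown oocytes again (FGO 4W, 3 and 3). No label says that the tubes of a group came from different animals, so each p-value measures the spread between tubes, which may be technical.

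Whole-gene counts of Dhx36 were not lower in the libraries labelled CKO at any stage. They ran from 64.0 to 77.2 CPM (counts scaled to a common library size) in WT and 66.6 to 94.2 in CKO at GO 2W, from 19.8 to 30.4 and 29.4 to 36.8 at FGO 3W, from 64.9 to 73.9 and 82.9 to 86.8 at FGO 4W, from 397 to 429 and 338 to 3230 at MII 3W, and from 256 to 466 and 304 to 758 in zygotes. The CKO value was called higher at MII 3W (log2 fold change 1.79, edgeR adjusted p = 0.00197) and was not called at the other stages. A whole-gene count can include exons outside the deleted part, which the labels do not name, so it did not check the genotype labels, and WT and CKO below mean the libraries labelled so. Total counts per library ran from 17697507 to 49104313. The ribosomal RNA gene Rn18s-rs5 took 21.9% and 8.43% of the counts in CKO MII 3W replicates 3 and 2 and 27.3% in CKO zygote 3W replicate 1. It took 1.61% to 6.81% in the other 26 libraries. The numbers of members called in CKO against WT are given with and without the 3 libraries rich in it. Calls of single members that ended without these libraries are marked. Levels, Dhx36 and the partner genes are given with all libraries only. All 12 oocyte markers were detected in every group, but their summed CPM was lower without overlap in CKO at FGO 3W (21700 to 22500 against 23400 to 24100), at FGO 4W (16100 to 21400 against 22900 to 26200) and in zygotes (7230 to 12600 against 14100 to 15300). Summed granulosa and cumulus markers were higher without overlap in CKO at GO 2W (106 to 138 CPM against 52.9 to 75.3), FGO 3W (133 to 135 against 61.3 to 63.6), FGO 4W (78.7 to 99.5 against 47.1 to 54.9) and in zygotes (57.4 to 142 against 46.4 to 55.6), and overlapped at MII 3W (73.7 to 133 against 97.2 to 108). The granulosa and cumulus sums rested on few genes, with Cyp19a1 at 30.3 to 126 CPM over the libraries. Fshr and Kitl reached 40.4 and 21.4 CPM, both in CKO libraries, and Inha and Gja1 peaked in WT GO 2W replicate 1 (14.6 and 5.51 CPM). Foxl2, Amh and Amhr2 reached at most 0.732, 0.559 and 0.904 CPM, and Ptx3 had no counts. Summed blood markers ran from 1.34 to 46.9 CPM in CKO zygotes and reached at most 4.45 CPM in the other groups. The blood cell genes Lyz2, Cd68 and Ptprc peaked in CKO zygote 3W replicate 3, at 29.8, 9.94 and 7.21 CPM. The globin genes Hbb-bs and Hba-a1 peaked in other libraries, at 0.145 and 0.0822 CPM. The part of these marker differences in the results was not tested. In pooled oocytes, less RNA of a gene per cell, fewer cells with it and a shorter poly(A) tail cannot be told apart.

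Ubiquitin reaches its targets through a relay in which an E1 enzyme activates it, an E2 or ubiquitin-conjugating enzyme carries it on a cysteine, and an E3 ligase brings the loaded E2 to the substrate. The choice of E2 helps set which chain is built and so whether a protein is degraded or used in signalling or repair, and a few E2 enzymes carry the ubiquitin-like proteins SUMO and NEDD8 instead. In oocytes this relay drives the exit from meiotic metaphase through the anaphase-promoting complex and the removal of maternal proteins after fertilization.

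DHX36 unwinds G-quadruplexes, folds of G-rich RNA or DNA in which runs of G stack, so the members' annotated transcripts were searched on the sense strand for 4 runs of 3 or more G separated by 1 to 7 bases. The motif was present in the chosen GENCODE transcript of 10 of 34 members with a protein-coding transcript (29.4%) and of 3667 of 21769 protein-coding genes (16.8%). The 10 were Ube2b, Ube2f, Ube2g1, Ube2k, Ube2m, Ube2q1, Ube2ql1, Ube2r2, Ube2s and Ube2z. The sequences of those that differed between the genotypes at MII 3W are shown from GRCm38 with the runs of G in capitals.
Ube2m, 5′ UTR, chr7:13037765-13037791, minus strand: GGGGGGccGGGtggccGGGGtcccGGG
Ube2m, 3′ UTR, chr7:13035311-13035335, minus strand: GGGGtaagtGGGcaatGGGcctGGG
Ube2q1, coding sequence, chr3:89773804-89773825, plus strand: GGGaGGGGGcccGGGGccaGGG
Ube2r2, 5′ UTR, chr4:41135905-41135929, plus strand: GGGcGGGcccgcGGGccgtctGGGG
Ube2s, 3′ UTR, chr7:4808060-4808085, minus strand: GGGGtGGGGGaGGGagttGGGGGGGG
Ube2z, 5′ UTR, chr11:96065364-96065387, minus strand: GGGctGGGGaagccgaGGGtGGGG
Ube2z, coding sequence, chr11:96065092-96065113, minus strand: GGGcGGGGccGGGGGaccGGGG
Ube2z, 3′ UTR, chr11:96049857-96049882, minus strand: GGGatatctGGGagtttGGGtGGGGG
Such a match is a description of the letters and not of a fold.

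Oocytes also lengthen and shorten poly(A) tails through cytoplasmic polyadenylation elements, and the words TTTTAT and TTTTAAT were searched in the last 100 bases of the same transcripts. They were found in 5 of 34 members (14.7%) against 16.2% of all protein-coding genes. The match of Ube2w, 1 of the 5, lay in the coding sequence, and its chosen transcript has 543 bases with a 3′ UTR of 3 bases. The gene length behind the FPKM of Ube2w is 20130 bases, so both motif searches covered little of that gene. The sites of Ube2t and Ube2q2, which differed between the genotypes, lie in the 3′ UTR and are shown with the word in capitals.
Ube2t, chr1:134974083-134974108, plus strand: ggatagtttgTTTTATttatcttgta
Ube2q2, chr9:55207429-55207454, plus strand: ttttttttgaTTTTATttttcattgc
In the RefSeq promoter windows, the G-quadruplex motif occurred on either strand in 14 of 28 members with a window (50%) and in 5525 of 27025 genes (20.4%).

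Levels of different genes were compared only in FPKM, the authors' counts scaled by gene length and library size. Summed over the members, group means ran from 1108 FPKM in CKO zygotes to 2184 FPKM in CKO FGO 4W oocytes. Among the CKO zygotes, replicate 1, rich in Rn18s-rs5, held 958 FPKM, and replicates 2 and 3 held 1164 and 1203 FPKM. Ube2t, whose product works with the Fanconi anaemia ligase FANCL in DNA crosslink repair, had the highest mean over the 10 groups at 396.8 FPKM. Ube2d3, a broadly used partner of RING-type ligases, followed at 364.4 FPKM, and Ube2c, the initiating E2 of the anaphase-promoting complex, at 198.2 FPKM. Next came Ube2a at 109.8 FPKM and Ube2d2a at 95.73 FPKM. Ube2t was highest in CKO FGO 4W and lowest in WT zygotes, with group means of 858 ± 36.3 and 120.5 ± 23.2 FPKM (SD, n = 3 each). Ube2d3 instead peaked in WT MII 3W oocytes at 598 ± 15.4 FPKM (SD, n = 3), beside 261 ± 28.8 FPKM in CKO FGO 4W, its lowest group. At the other end, Ube2ql1, Ube2e2, Ube2uos and Ube2dnl1 ranked lowest.

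**Figure D1:**
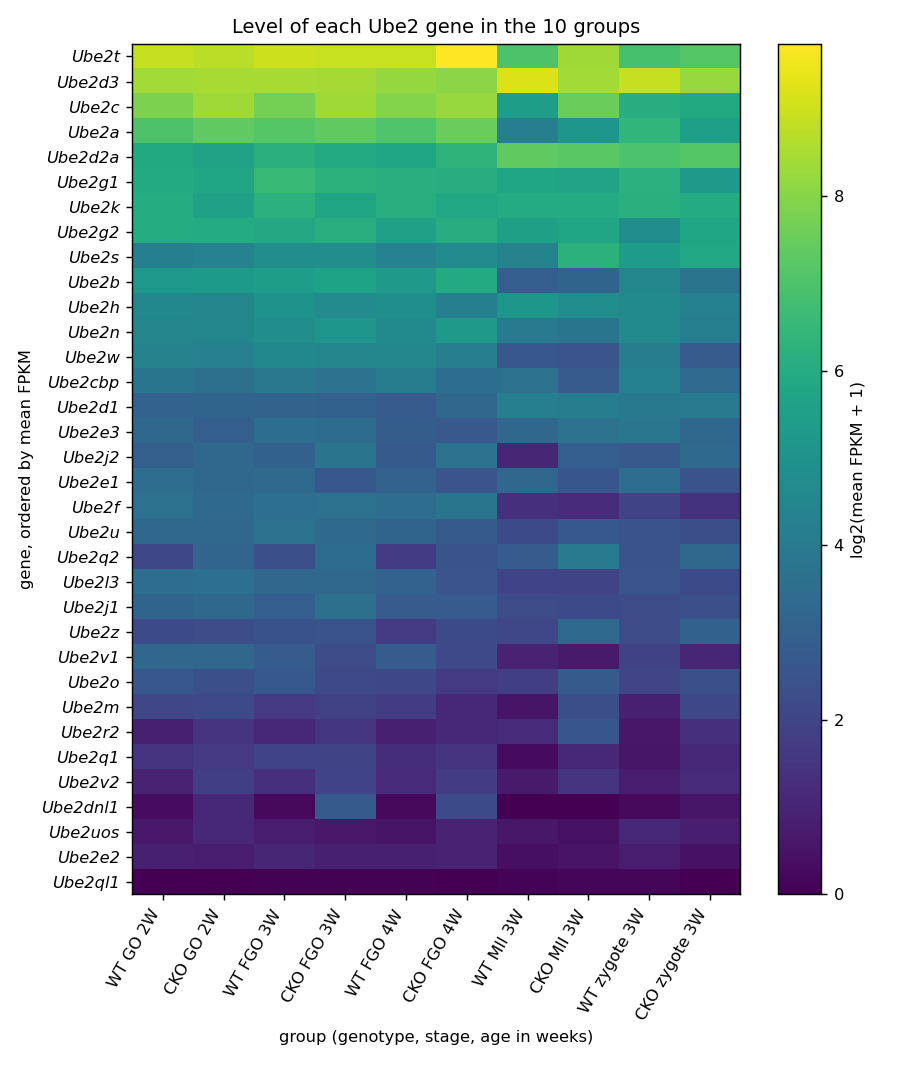
Mean FPKM of 34 Ube2 genes (rows, ordered by their mean over the groups) in the 10 groups (columns), coloured as log2(mean FPKM + 1) with no error shown. Ube2t, Ube2d3 and Ube2c form the brightest rows, and Ube2a, Ube2b, Ube2f and Ube2j2 are darker in WT MII 3W than in WT FGO 3W.

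Between WT stages the most calls fell at meiotic maturation, among the members (60% of the 35) as among all genes. From FGO 3W to MII 3W, 7 members rose and 14 fell, where 48.3% of all 21768 tested genes were called at an edgeR adjusted p under 0.05 (19.8% higher, 28.5% lower). The members' median log2 fold change was -0.21, beside -0.28 for all genes. From MII 3W to the zygote, 6 rose and 7 fell (34% of all genes called, 19.3% higher and 14.7% lower; medians 0.24 and 0.11). With limma on log2(FPKM + 1), which does not correct for library composition, 4 rose and 17 fell at maturation and 14 rose and 2 fell in the zygote. On log2(FPKM + 0.1) the median of all genes stood at -0.66 at maturation and 0.35 in the zygote, so a member's change is best read against these medians. From GO 2W to FGO 4W no member was called by edgeR, with 2 at an unadjusted p under 0.05 and 2.47% of all genes called (1.39% higher, 1.08% lower). FGO 3W, MII 3W and zygote 3W share an age of 3 weeks, while GO 2W and FGO 4W differ in age as well as stage. The stages may also differ in preparation day, which cannot be told apart here, and shares of a library do not give amounts per cell.

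The RAD6 enzymes Ube2a and Ube2b, which ubiquitinate histone H2B and the sliding clamp PCNA, fell at maturation and came back in the zygote. Ube2a stood at 247 and 214 CPM in the WT FGO 3W libraries, at 41.3, 41.9 and 42.6 CPM at MII 3W and at 143, 149 and 177 CPM in zygotes. The MII libraries lay far below both other groups, with no overlap (MII against FGO 3W, log2 fold change -2.46, SE 0.21, edgeR adjusted p = 1.04e-10; zygote against MII, log2 fold change 1.90, SE 0.19, edgeR adjusted p = 9.38e-09). Ube2b went from 117 and 117 CPM to 25.5, 29.8 and 27.9 CPM and back to 55.8, 64.6 and 88.1 CPM, again without overlap (log2 fold change -2.08, SE 0.26, edgeR adjusted p = 1.17e-07; log2 fold change 1.32, SE 0.24, edgeR adjusted p = 6.13e-05). In mice, loss of Ube2a in the mother is known to stop embryos early in cleavage.

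Ube2j2, an enzyme of the endoplasmic reticulum membrane that serves the degradation of misfolded proteins, showed the same dip in WT, with 21.6 and 25.9 CPM at FGO 3W, 5.99, 5.96 and 4.27 CPM at MII 3W and 25.3, 20.6 and 18.2 CPM in zygotes. The MII values lay below all values of both neighbours (log2 fold changes -2.14 and 1.98, edgeR adjusted p = 4.14e-08 and 1.25e-07). Ube2v1, a catalytically inactive partner of UBC13, held 13.2 and 10.7 CPM, then 2.99, 2.91 and 1.91 CPM, then 4.53, 5.95 and 7.76 CPM at the same stages. Its MII libraries were again lowest (log2 fold changes -2.20 and 1.22, edgeR adjusted p = 0.000338 and 0.0327). The zygote call of Ube2v1 ended without WT MII replicate 2 or 3 or WT zygote replicate 2 or 3 (adjusted p of 0.000243 to 0.112 over its alternatives).

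Ube2f, which carries NEDD8 to cullin 5, fell at maturation, from 25.7 and 23.8 CPM in the WT FGO 3W libraries to 5.57, 4.59 and 6.02 CPM at MII 3W (log2 fold change -2.20, SE 0.24, edgeR adjusted p = 1.1e-08). Ube2q1 had the most negative change of any member that reached a mean of 5 CPM in either group. Its libraries held 6.14 and 10.3 CPM at FGO 3W and 0.909, 0.971 and 0.838 CPM at MII 3W, with no overlap (log2 fold change -3.18, SE 0.58, edgeR adjusted p = 4.22e-05). Ube2c fell from 186 and 173 to 47.9, 65.3 and 54.4 CPM (log2 fold change -1.68, SE 0.18, edgeR adjusted p = 7.75e-09), and Ube2t from 596 and 492 to 230.4, 233 and 147 CPM (log2 fold change -1.42, SE 0.21, edgeR adjusted p = 1.94e-06).

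The closely related UBE2D enzymes moved the opposite way. Ube2d1 libraries held 11.3 and 11.2 CPM at FGO 3W and 37.4, 37.6 and 44.9 CPM at MII 3W (log2 fold change 1.83, SE 0.23, edgeR adjusted p = 1.64e-07). Ube2d2a held 192 and 210.5 CPM at FGO 3W and 685, 691 and 739 CPM at MII 3W (log2 fold change 1.81, SE 0.23, edgeR adjusted p = 1.29e-07), and Ube2d3 1694 and 1396 CPM at FGO 3W and 4006, 4014 and 3821 CPM at MII 3W (log2 fold change 1.35, SE 0.17, edgeR adjusted p = 1.54e-07). In each, every MII library lay above every FGO 3W library. Ube2d2a fell again in the zygote, to 372, 459.6 and 385 CPM, with a log2 fold change of -0.80 and an edgeR adjusted p of 0.00153. Tested with limma on log2(FPKM + 1), it was not called (adjusted p of 0.000192 to 0.0833 over its 14 alternatives). Ube2d3 and Ube2d1 fell in the zygote as well (log2 fold changes -0.74 and -0.67, edgeR adjusted p = 0.000218 and 0.00854), calls that 2 and 5 of 14 alternatives ended (adjusted p of 5.83e-07 to 0.145 and 0.000299 to 0.26). The other 4 members lower in WT zygotes than at MII were Ube2q2 (log2 fold change -0.76, edgeR adjusted p = 0.00949), Ube2r2 (log2 fold change -1.66, edgeR adjusted p = 0.0021), Ube2g2 (-1.15 and 5.54e-06) and Ube2h (-0.97 and 0.000341). The call of Ube2q2 ended in 4 of 14 alternatives (adjusted p of 0.00239 to 0.181), and that of Ube2r2 with limma on log2(FPKM + 1) (adjusted p of 0.000204 to 0.0695 over its 14 alternatives).

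Ube2q2 also rose at maturation, with 9.89 and 17.1 CPM in the WT FGO 3W libraries and 32.2, 30.2 and 28.9 CPM at MII 3W (log2 fold change 1.17, SE 0.26, edgeR adjusted p = 0.000403). The call rested on WT FGO 3W replicate 1, without which it ended (adjusted p of 4.77e-06 to 0.0836 over its 13 alternatives).

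The CKO libraries were then compared with WT at each stage. At GO 2W, 2 members were higher and 1 lower, where 13.7% of all genes were called, 7.34% higher and 6.38% lower. At FGO 3W, 2 were higher and 2 lower (17.8% of all genes called, 8.19% higher and 9.62% lower). At FGO 4W, 5 were higher and 5 lower (26.6%, of which 11.8% higher and 14.8% lower). At MII 3W, 11 were higher and 5 lower (32.9%; 18.2% higher, 14.7% lower), and in zygotes 7 were higher and 9 lower (27%; 14.5% higher, 12.5% lower). The libraries of the genotypes did not overlap for 19 members at GO 2W, 26 at FGO 3W, 19 at FGO 4W, 19 at MII 3W and 17 in zygotes, beside 44%, 69%, 46.7%, 37.5% and 30.3% of all genes. The called members made up 8.57%, 11.4%, 28.6%, 45.7% and 45.7% of the 35 in stage order. Their median log2 fold changes were -0.12, -0.25, 0.09, 0 and -0.03, beside -0.01, -0.05, 0, 0.13 and 0.08 for all genes. Members were thus called in both directions at every stage, with more higher than lower at MII 3W. Their median lay below that of all genes at every stage but FGO 4W. In all, 25 of 35 members were called at 1 or more stages, against 58.7% of all genes, and 5 at 3 or more, against 16.1%. With limma on log2(FPKM + 1), the higher and lower calls were 4 and 1 at GO 2W, 6 and 1 at FGO 3W, 10 and 5 at FGO 4W, 12 and 4 at MII 3W and 5 and 11 in zygotes, and with the RLE size factors of edgeR they were 2 and 1 at FGO 3W and 8 and 7 in zygotes. At FGO 3W, leaving out any one of its 4 libraries left 1 or 2 calls.

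Without the 3 libraries rich in Rn18s-rs5, 6, 10, 19, 16 and 16 members were called, where 22.2%, 26.7%, 35.1%, 30.1% and 34.6% of all genes were. All of the earlier calls were kept at the 3 stages before maturation, 14 of 16 were kept at MII 3W and 12 of 16 in zygotes.

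**Figure D2:**
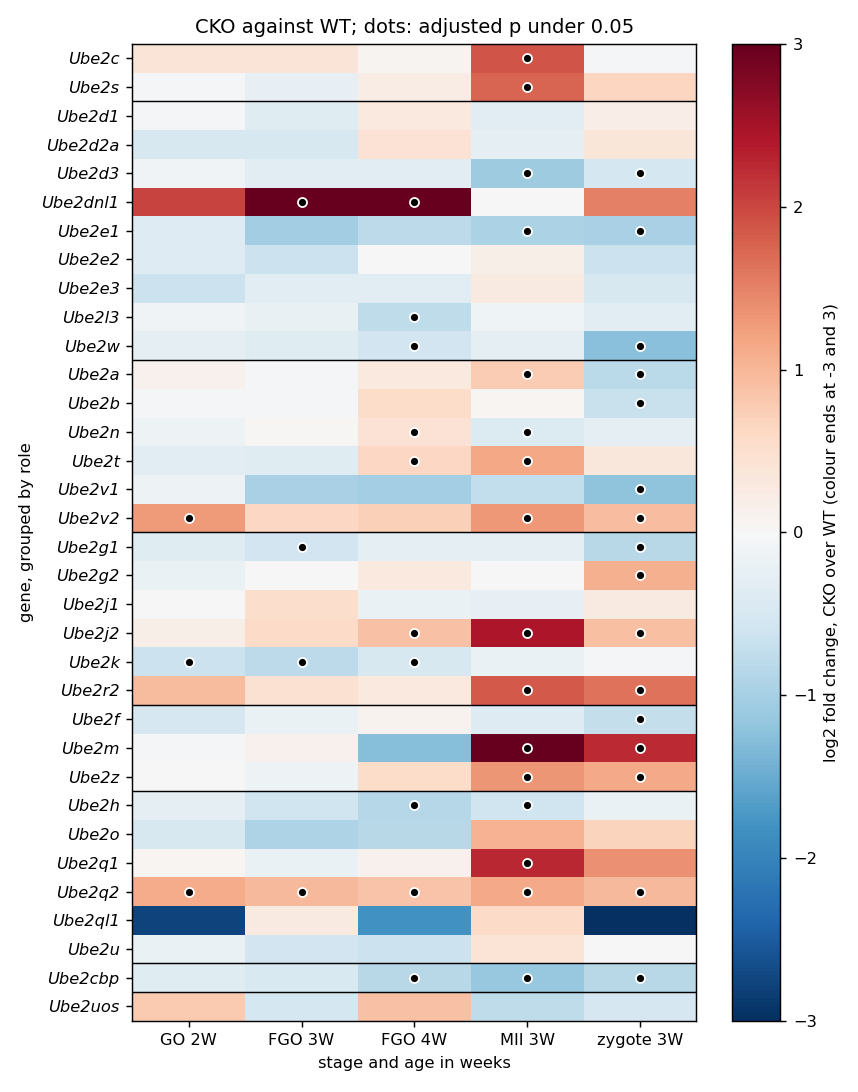
Log2 fold change of 34 members (rows, grouped by role with lines between the groups) in CKO against WT at the 5 stages (columns), with dots where the edgeR adjusted p was under 0.05. Ube2q2 is red with a dot at all 5 stages, and Ube2m, Ube2j2 and Ube2q1 have the strongest red at MII 3W; Ube2dnl1 and Ube2ql1 rest on few counts.

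Ube2q2, a conjugating enzyme with a long N-terminal extension, was the only member called in the same direction at all 5 stages, which 2.91% of all genes were. At GO 2W its WT libraries held 10.3, 10.1 and 10.8 CPM and its CKO libraries 24.5, 18.2 and 24.5 CPM. At FGO 4W they held 6.48, 7.13 and 9.26 CPM in WT and 12.9, 15.97 and 12.2 CPM in CKO, and at MII 3W 32.2, 30.2 and 28.9 CPM in WT and 53.97, 78.2, 75.1 and 59.3 CPM in CKO. In zygotes they held 14.5, 21.2 and 18.3 CPM in WT and 44.8, 32.3 and 28.3 CPM in CKO. Every CKO library lay above every WT library of its stage, and so did 30.1 and 23.1 CPM over 9.89 and 17.1 CPM at FGO 3W. The log2 fold changes were 1.10, 0.98, 0.85, 1.13 and 0.96 (SE 0.23, 0.27, 0.23, 0.21 and 0.23), with edgeR adjusted p = 0.00136, 0.0128, 0.00671, 0.000153 and 0.00195. The FGO 3W call ended without WT replicate 1 or CKO replicate 1 (adjusted p of 0.000489 to 0.26 over its 13 alternatives), and the zygote call when zygotes were fitted alone (adjusted p of 0.000105 to 0.059 over its 15 alternatives).

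Ube2q1, its closest relative among the members by name, was called at MII 3W alone, with 0.909, 0.971 and 0.838 CPM in WT and 2.95, 5.55, 7.64 and 1.21 CPM in CKO (log2 fold change 2.25, SE 0.52, edgeR adjusted p = 0.00138). The highest CKO values were those of replicates 2 and 3, rich in Rn18s-rs5, and without those libraries the change was 1.22, still called. Ube2h, the E2 of the CTLH ligase complex, was lower in CKO at FGO 4W, where WT libraries held 146, 164 and 153 CPM and CKO libraries 92.5, 94.6 and 69.2 CPM (log2 fold change -0.85, SE 0.20, edgeR adjusted p = 0.00218). At MII 3W it held 292, 283 and 314 CPM in WT and 152, 230.3, 244 and 158 CPM in CKO (log2 fold change -0.60, SE 0.19, edgeR adjusted p = 0.0137), a call that ended without WT replicate 1 or 3 or CKO replicate 1 or 4 (adjusted p of 1.04e-05 to 0.0827 over its alternatives). Ube2o, Ube2u and Ube2ql1 were not called at any stage.

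The E2 genes of the anaphase-promoting complex, Ube2c and Ube2s, were both called higher in CKO at MII 3W and at no other stage. At GO 2W and FGO 3W all CKO libraries of Ube2c also lay above all WT libraries, without a call (log2 fold changes 0.389 and 0.385, edgeR adjusted p = 0.115 and 0.193). UBE2C adds the first ubiquitins to its substrates, cyclin B and securin among them, and UBE2S extends the chains. Ube2c stood at 47.9, 65.3 and 54.4 CPM in the WT MII libraries and 213, 165, 191 and 255 CPM in the CKO MII libraries. The lowest CKO library lay far above the highest WT library (log2 fold change 1.88, SE 0.16, edgeR adjusted p = 1.3e-09), and the change was 2.07 without the libraries rich in Rn18s-rs5. In zygotes the genotypes overlapped, at 60.9, 57.3 and 79.1 CPM in WT and 58.4, 74.3 and 60.7 CPM in CKO (log2 fold change -0.03).

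The Ube2s libraries held 23.2, 33.2 and 25.99 CPM in WT and 48.6, 208, 70.8 and 42.6 CPM in CKO at MII 3W, with CKO replicate 2 standing apart (log2 fold change 1.75, SE 0.40, edgeR adjusted p = 0.00106). Without that replicate the change was 0.99, and without all libraries rich in Rn18s-rs5 it was 0.74, still called (adjusted p of 9.02e-13 to 0.0451 over its 16 alternatives). Exons of Ube2s overlap those of the ribosomal protein gene Rpl28 on the other strand, the strand setting of the counts is not given in the sources used here, and reads of the pair could therefore not be told apart. Rpl28 was also higher in CKO at MII 3W (log2 fold change 1.95, edgeR adjusted p = 1.64e-07). Ube2c overlaps Tnnc2 in the same way, whose mean CPM at MII 3W was 0.165 ± 0.144 in WT (SD, n = 3) and 0.194 ± 0.163 in CKO (SD, n = 4).

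**Figure D3:**
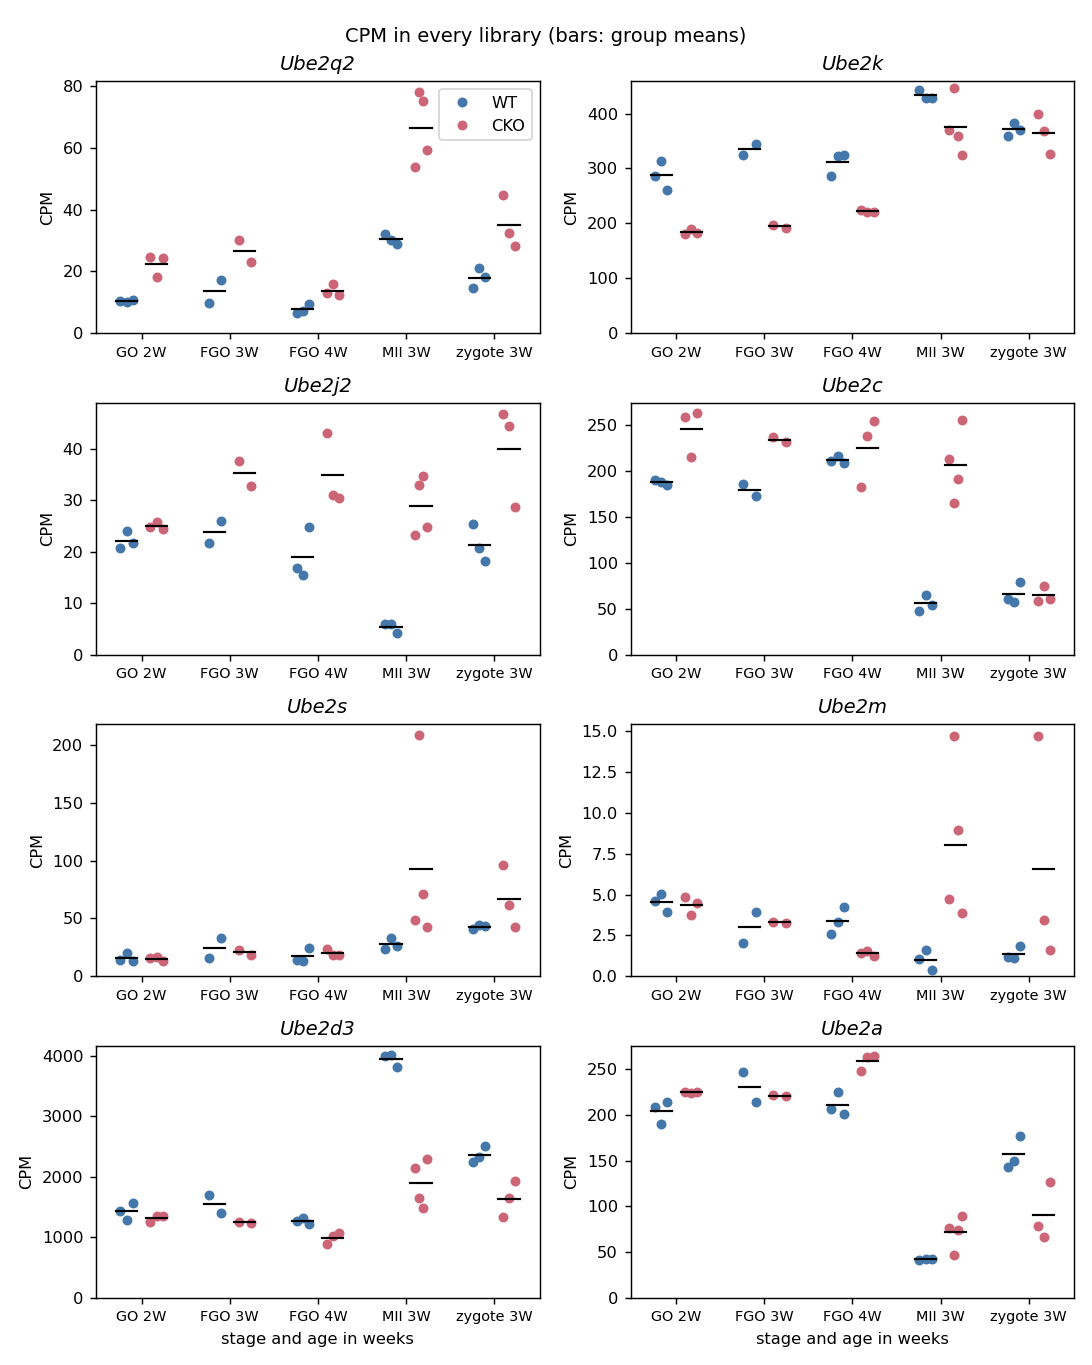
CPM of 8 members in each of the 29 libraries (points; blue WT, red CKO) by stage, with group means as bars and each vertical axis starting at 0. Ube2q2 is higher in CKO at every stage, Ube2k is lower in CKO at the first 3 stages, and Ube2c and Ube2j2 stay near their earlier levels in CKO MII 3W while they are low in WT MII 3W.

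The UBE2D and UBE2E class, whose members pass ubiquitin to many ligases, was taken as 9 members, Ube2w and Ube2l3 among them. None was called at GO 2W. At FGO 3W 1 was higher in CKO and none lower (8.19% and 9.62% of all genes). At FGO 4W 1 was higher and 2 lower (11.8% and 14.8%). At MII 3W none was higher and 2 were lower (18.2% and 14.7%), and in zygotes none and 3 (14.5% and 12.5%). The higher calls were those of Ube2dnl1. Ube2d3 held 4006, 4014 and 3821 CPM in WT and 2143, 1654, 1478 and 2302 CPM in CKO at MII 3W, with no overlap (log2 fold change -1.06, SE 0.14, edgeR adjusted p = 8.37e-07). In zygotes it held 2252, 2335 and 2510.2 CPM in WT and 1336, 1644 and 1929.7 CPM in CKO (log2 fold change -0.53, SE 0.15, edgeR adjusted p = 0.00768). The zygote libraries did not overlap either, but the call ended when zygotes were fitted alone (adjusted p of 0.00063 to 0.0845 over its 15 alternatives). Its 2 close relatives Ube2d1 and Ube2d2a were not called at any stage, with 511, 705, 648 and 441 CPM of Ube2d2a in the CKO MII libraries.

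Ube2w, which places ubiquitin on the N terminus of proteins, was lower in CKO zygotes, where WT libraries held 322, 312 and 390.2 CPM and CKO libraries 147, 118 and 162 CPM. No CKO zygote library came near the WT range (log2 fold change -1.26, SE 0.15, edgeR adjusted p = 6.54e-07). It was also lower at FGO 4W, at 384, 431 and 414 CPM in WT and 287, 265 and 273 CPM in CKO (log2 fold change -0.57, SE 0.15, edgeR adjusted p = 0.00556), a call that ended with limma on log2(FPKM + 0.1) (adjusted p of 0.000978 to 0.0586 over its 15 alternatives). Ube2w overlaps the predicted gene Gm38342 on the other strand, which was not tested.

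Ube2e1 was lower in CKO at MII 3W (log2 fold change -0.94, edgeR adjusted p = 0.0216) and in zygotes (-0.97 and 0.0366), and the calls ended when a stage was fitted alone or without some single libraries of it (adjusted p of 0.00588 to 0.0978 and 0.00682 to 0.111 over the alternatives). Its antisense neighbour Nkiras1 was lower too, with log2 fold changes of -0.68 and -0.83 (edgeR adjusted p = 0.000177 and 6.45e-05). Ube2e2 and Ube2e3 were not called at any stage. Ube2l3, the partner of HECT and RBR ligases, was lower at FGO 4W (log2 fold change -0.76, edgeR adjusted p = 0.031), and 8 of 15 alternatives ended that call (adjusted p of 0.00284 to 0.275). Ube2dnl1, a gene like those of the UBE2D enzymes, was nearly silent in WT, with at most 12 counts in any WT library. Of its 691 counts, 201 and 184 lay in the CKO FGO 3W libraries. It thus reached the minimum total for a member through CKO libraries, the side called higher, and its calls do not allow for this. Its libraries held 0.237 and 0.0412 CPM in WT and 3.31 and 3.296 CPM in CKO at FGO 3W and 0.0762, 0.153 and 0.147 CPM in WT and 2.15, 1.56 and 2.85 CPM in CKO at FGO 4W, without overlap (edgeR adjusted p = 0.016 and 0.0066). The FGO 3W call ended without WT replicate 2 or either CKO library (adjusted p of 5.74e-08 to 0.161 over its alternatives). In all 7 MII libraries it was at 0 counts, and its near-identical copy Ube2dnl2 could share its reads.

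Among the RAD6, UBC13 and repair enzymes, Ube2a changed in opposite directions at the last 2 stages. At MII 3W its WT libraries held 41.3, 41.9 and 42.6 CPM and its CKO libraries 76.2, 46.9, 73.8 and 89.4 CPM, all CKO values above all WT values (log2 fold change 0.77, SE 0.18, edgeR adjusted p = 0.00137). In zygotes the order was turned, with 143, 149 and 177 CPM in WT and 77.97, 65.9 and 126 CPM in CKO (log2 fold change -0.80, SE 0.19, edgeR adjusted p = 0.00214). The zygote ranges did not overlap, though the call ended when zygotes were fitted alone (adjusted p of 2e-05 to 0.0791 over its 15 alternatives). A genotype change unequal among the 5 stages was called for Ube2a at an edgeR adjusted p of 0.000748, as it was for 14 members and 30.3% of all genes. Ube2b held 55.8, 64.6 and 88.1 CPM in WT zygotes and 32.5, 28.4 and 71.01 CPM in CKO zygotes, where the CKO value of replicate 3 lay within the WT range (log2 fold change -0.66, SE 0.24, edgeR adjusted p = 0.037). That call ended without the libraries rich in Rn18s-rs5 (adjusted p of 7.4e-05 to 0.257 over its 15 alternatives) and under 6 other alternatives.

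Ube2t was higher in CKO at FGO 4W, with 417, 599.9 and 529 CPM in WT and 835, 741 and 793 CPM in CKO (log2 fold change 0.62, SE 0.19, edgeR adjusted p = 0.0173). At MII 3W it held 230.4, 233 and 147 CPM in WT and 462, 341, 487 and 531 CPM in CKO (log2 fold change 1.16, SE 0.18, edgeR adjusted p = 1.67e-05). The ranges did not overlap at either stage, and the FGO 4W call ended without WT replicate 1 or CKO replicate 1 (adjusted p of 0.00139 to 0.106 over its 15 alternatives). UBC13, the product of Ube2n, builds Lys63-linked chains only when paired with a UBE2V partner, and the 2 partner genes went opposite ways in CKO zygotes. Ube2v2 held 4.46, 3.59 and 6.83 CPM in WT and 14.9, 9.23 and 12.1 CPM in CKO at GO 2W (log2 fold change 1.28, SE 0.32, edgeR adjusted p = 0.00657). At MII 3W it held 5.27, 6.005 and 4.801 CPM in WT and 10.01, 16.7, 16.4 and 9.99 CPM in CKO (log2 fold change 1.31, SE 0.30, edgeR adjusted p = 0.00132).

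In zygotes Ube2v2 held 6.32, 4.86 and 2.39 CPM in WT and 9.82, 6.702 and 9.41 CPM in CKO, and Ube2v1 4.53, 5.95 and 7.76 CPM in WT and 2.28, 2.77 and 2.82 CPM in CKO. Ube2v2 was higher in all CKO zygote libraries (log2 fold change 0.93, SE 0.32, edgeR adjusted p = 0.0308) and Ube2v1 lower in all (log2 fold change -1.21, SE 0.45, edgeR adjusted p = 0.0443). Of 15 alternatives, 8 ended the first call and 7 the second (adjusted p of 0.00955 to 0.195 and 0.00252 to 0.141), and the GO 2W call of Ube2v2 ended without WT replicate 2 (adjusted p of 0.000379 to 0.0534 over its 15 alternatives). Leaving out the libraries rich in Rn18s-rs5 was among the alternatives that ended the zygote call of Ube2v2. Ube2v1 exons overlap those of Gm11476 on the other strand, which was lower in CKO zygotes as well (log2 fold change -0.79, edgeR adjusted p = 0.00465). On the same strand, exons of Ube2v1 overlap Gm20431, those of Ube2g2 overlap Gm49325 and Mir1930, and those of Ube2d2a overlap AC141471.2. Reads in these shared exons could not be told apart under any strand setting. Ube2n itself was higher at FGO 4W (0.42) and lower at MII 3W (-0.41), with edgeR adjusted p = 0.0279 and 0.0176, and 6 of 15 and 7 of 16 alternatives ended these calls (adjusted p of 0.00145 to 0.16 and 0.00197 to 0.258). The MII 3W call of Ube2n also ended without the libraries rich in Rn18s-rs5.

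Ube2k, which builds Lys48-linked chains, the signal for the proteasome, was lower in CKO at the 3 stages before maturation. The WT libraries held 287, 315 and 261 CPM at GO 2W and the CKO libraries 179.9, 189 and 183 CPM. At FGO 3W they held 325 and 346 CPM in WT and 196 and 192 CPM in CKO, and at FGO 4W 285, 324 and 325 CPM in WT and 225, 220.0 and 221 CPM in CKO. At each of these stages all CKO values lay below all WT values. The log2 fold changes were -0.64, -0.79 and -0.49 (SE 0.12, 0.15 and 0.12), with edgeR adjusted p = 0.000583, 0.000427 and 0.00317. The FGO 4W call ended with no filter on low counts (adjusted p of 0.000493 to 0.0731 over its 15 alternatives). At MII 3W and in zygotes the ranges overlapped, with 443, 429 and 428 CPM in WT against 370.0, 446, 359 and 325 CPM in CKO at MII 3W and 360.0, 383 and 370.1 against 399, 369 and 326 CPM in zygotes (log2 fold changes -0.21 and -0.02). The genotype change was unequal among the stages at an edgeR adjusted p of 0.0079, a call that ended with limma on either FPKM scale (adjusted p of 0.000192 to 0.236 over its 37 alternatives).

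Ube2j2 was higher in CKO at the last 3 stages. At FGO 4W the WT libraries held 16.7, 15.5 and 24.8 CPM and the CKO libraries 43.1, 30.9 and 30.4 CPM (log2 fold change 0.87, SE 0.22, edgeR adjusted p = 0.00455). At MII 3W they held 5.99, 5.96 and 4.27 CPM in WT and 23.3, 32.95, 34.6 and 24.8 CPM in CKO (log2 fold change 2.42, SE 0.23, edgeR adjusted p = 6.59e-09), and in zygotes 25.3, 20.6 and 18.2 CPM in WT and 46.8, 44.3 and 28.6 CPM in CKO (log2 fold change 0.90, SE 0.22, edgeR adjusted p = 0.00332). No library overlapped the other genotype at these stages. The MII change stayed at 2.16 without the libraries rich in Rn18s-rs5, and the zygote call ended when zygotes were fitted alone (adjusted p of 0.000228 to 0.0702 over its 15 alternatives). Its relative Ube2j1, also an enzyme of the endoplasmic reticulum membrane, was not called at any stage.

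Ube2g2, an enzyme of the degradation of proteins from the endoplasmic reticulum, was higher in CKO zygotes. The WT zygote libraries held 59.5, 60.5 and 54.1 CPM and the CKO zygote libraries 118, 153 and 94.5 CPM, without overlap (log2 fold change 1.07, SE 0.17, edgeR adjusted p = 3.51e-05). Ube2g1, which extends chains on substrates of cullin 4 ligases, was lower there, at 294, 298 and 318 CPM in WT and 192, 146 and 169 CPM in CKO (log2 fold change -0.84, SE 0.16, edgeR adjusted p = 0.000257). At FGO 3W Ube2g1 held 315 and 349 CPM in WT and 229 and 215 CPM in CKO (log2 fold change -0.58, SE 0.20, edgeR adjusted p = 0.0411), a call that 10 of 13 alternatives ended, DESeq2 among them (adjusted p of 0.0271 to 0.256 over its 13 alternatives). Ube2r2, which extends chains for the SCF ligases, was higher in CKO at MII 3W, with 6.14, 4.901 and 6.78 CPM in WT and 14.1, 31.7, 28.8 and 10.7 CPM in CKO (log2 fold change 1.84, SE 0.38, edgeR adjusted p = 0.00042). The 2 highest CKO values belonged to the libraries rich in Rn18s-rs5, and without these the change was 1.07. In zygotes Ube2r2 held 1.39, 2.27 and 1.95 CPM in WT and 5.51, 8.62 and 3.29 CPM in CKO (log2 fold change 1.63, SE 0.41, edgeR adjusted p = 0.00388), a call that ended when zygotes were fitted alone (adjusted p of 0.000428 to 0.0577 over its 15 alternatives).

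Of the E2 enzymes for ubiquitin-like proteins, Ube2m, the main NEDD8 carrier of cullins, was higher in CKO at MII 3W and in zygotes. At MII 3W the WT libraries held 1.02, 1.59 and 0.381 CPM and the CKO libraries 4.74, 14.7, 8.93 and 3.84 CPM, without overlap (log2 fold change 3.02, SE 0.59, edgeR adjusted p = 0.000216). Without the libraries rich in Rn18s-rs5 the change was 2.12 (adjusted p of 3.22e-09 to 0.00395 over its 16 alternatives). In zygotes it held 1.19, 1.09 and 1.86 CPM in WT and 14.7, 3.47 and 1.599 CPM in CKO (log2 fold change 2.24, SE 0.59, edgeR adjusted p = 0.00531). The ranges overlapped, and the change rested on CKO replicate 1, rich in Rn18s-rs5, without which it was 0.79 (adjusted p of 4.76e-05 to 0.265 over its 15 alternatives).

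Ube2z, which takes ubiquitin from the E1 UBA6, held 18.6, 15.1 and 20.3 CPM in WT and 30.6, 66.3, 61.3 and 21.5 CPM in CKO at MII 3W (log2 fold change 1.32, SE 0.37, edgeR adjusted p = 0.00602). Its call ended without the libraries rich in Rn18s-rs5 (log2 fold change 0.55, adjusted p of 5.37e-06 to 0.214 over its 16 alternatives), and its zygote change of 1.14 (adjusted p = 0.0272) became 0.52 without CKO zygote replicate 1 (adjusted p of 0.000784 to 0.331 over its 15 alternatives). Ube2f was lower in CKO zygotes (11.4, 6.299 and 5.91 CPM in WT and 4.31, 5.06 and 4.99 CPM in CKO; log2 fold change -0.72, SE 0.22, edgeR adjusted p = 0.0173), and 4 of 15 alternatives ended the call, leaving out WT replicate 1 among them (adjusted p of 0.00472 to 0.245).

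Ube2cbp, the UBE2C-binding protein gene, was lower in CKO at the last 3 stages. It held 26.4, 31.7 and 28.5 CPM in WT and 17.7, 13.97 and 17 CPM in CKO at FGO 4W (log2 fold change -0.83, SE 0.21, edgeR adjusted p = 0.00345). At MII 3W it held 32.2, 28.7 and 29.3 CPM in WT and 16.3, 9.94, 13.6 and 14.7 CPM in CKO (log2 fold change -1.14, SE 0.19, edgeR adjusted p = 3.51e-05). In zygotes it held 37.1, 33.5 and 40.97 CPM in WT and 13.4, 24.5 and 24.7 CPM in CKO (log2 fold change -0.83, SE 0.21, edgeR adjusted p = 0.00328), a call that ended when zygotes were fitted alone (adjusted p of 0.000358 to 0.101 over its 15 alternatives). The CKO libraries lay below all WT libraries at each of these stages, so at MII 3W Ube2cbp and Ube2c differed in opposite directions. The non-coding Ube2uos was not called at any stage.

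The change from FGO 3W to MII 3W was then compared between the genotypes, which share no libraries in it. A change unequal between the genotypes was called for 8 members, 7 of them more positive in CKO, where 14.7% of all genes were called, 9.79% more positive and 4.93% more negative. Ube2c fell in WT (log2 fold change -1.68) and was at -0.18 in CKO, a difference of 1.5 (SE 0.25, edgeR adjusted p = 0.00015). Ube2j2 stood at -2.14 in WT and -0.28 in CKO (difference 1.85, SE 0.35, edgeR adjusted p = 0.000515), and Ube2t at -1.42 and 0.11 (difference 1.53, SE 0.30, edgeR adjusted p = 0.000682). All 19 alternatives kept these calls. Ube2d3 differed the other way, rising by 1.35 in WT and 0.60 in CKO (difference -0.75, edgeR adjusted p = 0.0242).

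The remaining members with unequal maturation changes were Ube2m, Ube2q1, Ube2s and Ube2k, with differences of 2.88, 2.44, 2.01 and 0.58. Their edgeR adjusted p-values were 0.0263, 0.0366, 0.0305 and 0.0338. Without the libraries rich in Rn18s-rs5, Ube2q1, Ube2s and Ube2k were no longer called. Over 19 alternatives the adjusted p ran from 0.0013 to 0.164 for Ube2m, from 0.00644 to 0.215 for Ube2q1, from 4.53e-06 to 0.261 for Ube2s and from 0.0241 to 0.269 for Ube2k. Without WT FGO 3W replicate 2, or either CKO FGO 3W library, 3 members were called, which were Ube2c, Ube2j2 and Ube2t, and without WT MII 3W replicate 1 or 3, 4 were. The RAD6 gene Ube2b stood at -2.08 in WT and -1.98 in CKO, and Ube2f at -2.20 and -2.40. Over 33 members, the changes of the genotypes correlated at a Pearson r of 0.726 and a Spearman rho of 0.715, a description across genes that share their libraries.

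**Figure D4:**
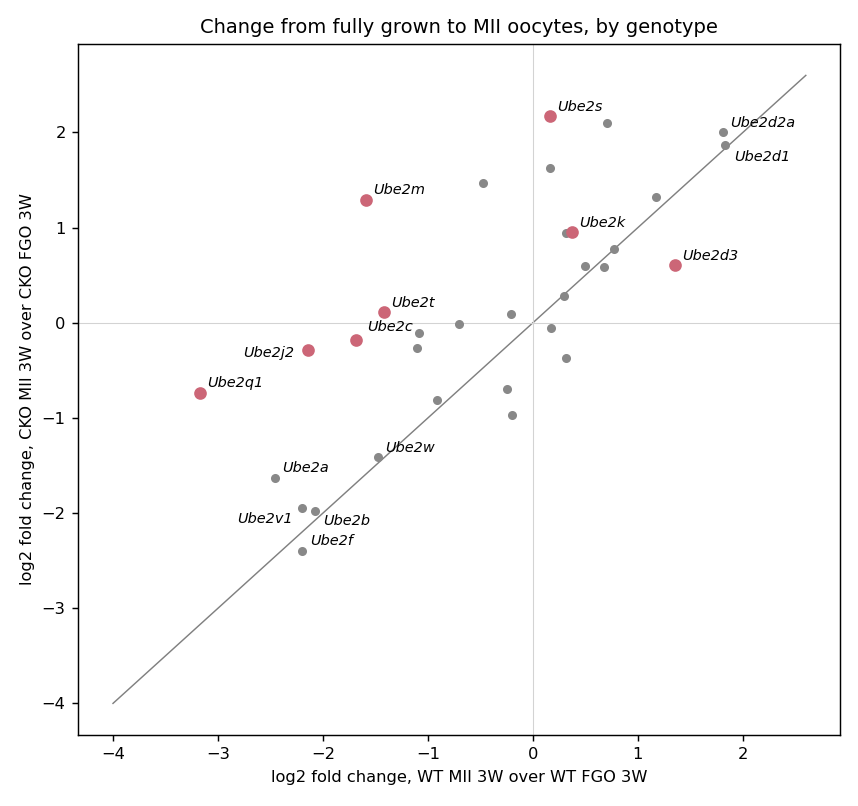
Log2 fold change from FGO 3W to MII 3W in WT (horizontal axis) and CKO (vertical axis) for 33 members, without the low-count genes Ube2dnl1 and Ube2ql1; the diagonal marks equal change and red points have an unequal change at an edgeR adjusted p under 0.05. Ube2c, Ube2j2, Ube2t, Ube2q1 and Ube2m lie left of the diagonal, Ube2d3 to its right, and Ube2b and Ube2f near it.

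Of the 10 members with a G-quadruplex motif in the transcript, 5 were higher and none lower in CKO at MII 3W (Ube2m, Ube2q1, Ube2r2, Ube2s and Ube2z, whose motifs are shown above), with a median log2 fold change of 0.94. Of the 24 without one, 6 were higher and 5 lower, with a median of -0.06. Among all tested genes with a chosen transcript, 25.6% of 2785 with the motif were higher and 12.2% lower, beside 19.3% and 20% of 11937 without it, with medians of 0.36 and 0.01. Without the libraries rich in Rn18s-rs5, 4 of 9 members with the motif were higher and 1 lower, and of all genes 17.3% with the motif and 17.9% without it were higher, with medians of 0.04 and -0.01. Transcripts with the motif had a median GC content of 51.2% in the members and 52.9% in all genes, against 46.8% and 49.3% without it, and the part of GC content was not tested. In zygotes 3 members with the motif were higher and 3 lower, beside 21.2% and 10% of all genes with it, and without the libraries rich in Rn18s-rs5 1 of 9 was higher and 2 were lower. At the 3 earlier stages no member with the motif was higher in CKO, beside 8.3%, 7.9% and 15% of all genes with it; without those libraries 1 was higher at GO 2W and 1 at FGO 4W. Ube2k was lower at all 3 and Ube2g1 at FGO 3W.

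**Figure D5:**
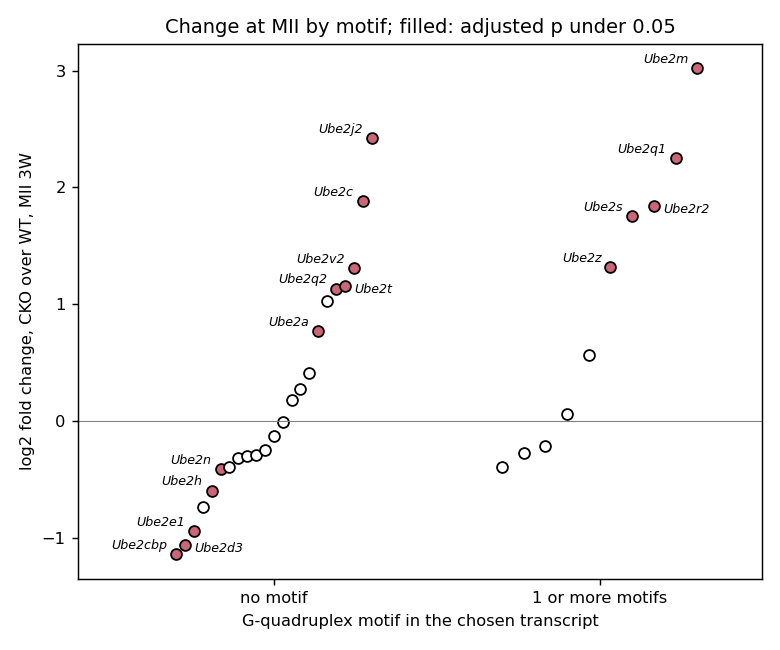
Log2 fold change of CKO against WT at MII 3W for 33 members, split by whether the chosen transcript holds a G-quadruplex motif; filled points had an edgeR adjusted p under 0.05, and the horizontal position within a group follows the rank. With the motif, 5 points are filled and all lie above 0, and without it filled points lie on both sides of 0.

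The partners of these enzymes in the ubiquitin relay were described from lists of related genes, and their counts at MII 3W are to be read against the 18.2% of all genes that were higher and the 14.7% that were lower there. Of 10 E1 genes, 1 was higher and 2 were lower in CKO at MII 3W. Uba1, the main ubiquitin E1, was lower in CKO at every stage but the zygote, with log2 fold changes of -0.43, -0.61, -0.59 and -0.82 (edgeR adjusted p = 0.0129, 0.00339, 0.000399 and 1.36e-06). The subunits of the SUMO E1 went opposite ways at MII 3W, with Sae1 at 1.35 and Uba2 at -1.53 (edgeR adjusted p = 3.24e-05 and 1.47e-07). Of 4 ubiquitin precursor genes, 3 were higher and 1 lower in CKO zygotes, where 14.5% of all genes were higher and 12.5% lower. Ubb, one of them, was lower at every stage but FGO 4W, with log2 fold changes of -0.63 at GO 2W, -0.71 at FGO 3W, -1.41 at MII 3W and -0.62 in zygotes (edgeR adjusted p = 0.00786, 0.0122, 3.65e-08 and 0.0046).

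Of 18 genes of the anaphase-promoting complex and its regulators, 4 were higher and 7 lower in CKO at MII 3W, where 18.2% of all genes were higher and 14.7% lower. Fbxo43, the inhibitor of the complex that holds oocytes at metaphase II, was lower in CKO at all 5 stages, with log2 fold changes from -1.27 at MII 3W to -0.40 in zygotes (edgeR adjusted p = 7.55e-08 and 0.0481). The activator gene Fzr1 was higher at MII 3W (1.74, edgeR adjusted p = 3.27e-06). Ube2c, Ube2s and Fzr1 were higher and Fbxo43 lower in CKO MII oocytes, but more of the 18 listed genes were lower than higher there. The median log2 fold change of the 18 was -0.17, and the activity of the complex was not tested. Of 18 genes of the NEDD8 and cullin pathway, 6 were higher and 10 lower at MII 3W, with Nedd8 higher by 1.51 (edgeR adjusted p = 2.17e-06) and the NEDD8 protease Senp8 at -1.15 (edgeR adjusted p = 5.04e-07).

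Of 16 SUMO pathway genes, 3 were higher and 3 lower at MII 3W, about the shares of all genes, and the SUMO ligase Pias1 was lower at all 5 stages, with -0.53 at GO 2W and -1.17 at MII 3W (edgeR adjusted p = 0.0218 and 4.97e-07). Of 12 partners in degradation from the endoplasmic reticulum, 3 were higher and 3 lower at MII 3W. Of 22 deubiquitinases, 4 were higher and 9 lower at MII 3W, with Usp47 at -1.30 (edgeR adjusted p = 6.7e-08). Of 8 E2 genes named otherwise, 2 were higher and 3 lower at MII 3W, and the autophagy E2 Atg10 was lower at all 5 stages, between -2.13 at FGO 3W and -1.36 at MII 3W (edgeR adjusted p = 0.000336 and 0.000523). Of 12 ligases that partner RAD6, UBC13 and FANC enzymes, 2 were higher and 4 lower at MII 3W, among them Chfr at -1.07 (edgeR adjusted p = 2.95e-06).

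The median log2 fold change at MII 3W was 0.13 over all tested genes. It was 0.78 for the ubiquitin precursors, -0.39 for the E1 genes, -0.44 for the E2 genes named otherwise, -0.17 for the anaphase-promoting complex and -0.49 for the NEDD8 and cullin pathway. It was -0.09 for the SUMO pathway, -0.16 for the partner ligases, 0.18 for degradation from the endoplasmic reticulum and -0.30 for the deubiquitinases. The values of these lists include the CKO libraries rich in Rn18s-rs5, whose part in them was not tested.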

How the data were processed

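Poly(A) RNA of 29 tubes of 10 oocytes or zygotes was read by Smart-seq2. The submitters' processing notes name Trim Galore, FastQC, HISAT2, SAMtools, featureCounts and mm10; the strand setting and annotation release are not given in the sources used here. The count table deposited by the authors gives unscaled read counts for each gene symbol, and 81% of counts from 1 to 20 were even. The deposited FPKM, computed by the authors, equalled counts scaled by length and library total in a check on 8111 genes.

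Counts were fitted with edgeR 4.0.16 in R 4.3.3 as 1 model of all 10 groups, with TMM scaling, filterByExpr (minimum count 10, 21768 genes), trended dispersions and quasi-likelihood F tests (19 residual degrees of freedom), adjusted by Benjamini-Hochberg over all tested genes at a threshold of 0.05. The SE is the log2 fold change divided by the square root of F. CPM are TMM-scaled. The steps were tested on simulated data. Members were named where called, or for their role. The members and gene lists were chosen with earlier results of these data known. Alternatives were RLE size factors, no filter, 1 common dispersion, a replicate block, limma 3.58.1 on log2(FPKM + 1) and log2(FPKM + 0.1) for genes with at least 0.5 FPKM, DESeq2 1.42.0, each stage alone and each library left out. Leaving out the 3 libraries rich in Rn18s-rs5 and comparing maturation between genotypes were added after seeing the data. Replicate numbers did not pair libraries: over 14 pairs, deviations of same-numbered libraries correlated at -0.0797 to 0.0392. Motifs were searched in GENCODE M21 transcripts of GRCm38 and in RefSeq promoter windows. Intervals of counting error were not needed, since each value has replicates. Single values of 1 member, of some partner genes and of 1 motif sequence are not reported here; counts and medians include them.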

Additional observations from a re-analysis of the deposited data

Results flagged for a closer look

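A CKO against WT change that was unequal among the 5 stages was called by the edgeR quasi-likelihood test for 14 members, beside 30.3% of all tested genes. The adjusted p was 1.45e-06 for Ube2c, 5.05e-05 for Ube2j2, 0.000302 for Ube2t, 0.000748 for Ube2a, 0.000869 for Ube2m, 0.00172 for Ube2g2, 0.00331 for Ube2w, 0.00575 for Ube2d3, 0.0079 for Ube2k, 0.0126 for Ube2n and 0.0129 for Ube2d2a. It was 0.0405 for Ube2q1, 0.0414 for Ube2o and 0.0476 for Ube2s, and for these 3 genes 24, 25 and 27 of 37 alternatives ended the call. For each of the 3, leaving out the libraries rich in Rn18s-rs5 was among them.

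Ube2c, Ube2s and Ube2t had their most positive change at MII 3W, where Ube2d3 had its most negative one. Ube2a stood at 0.77 at MII 3W and -0.80 in zygotes, Ube2n at 0.42 at FGO 4W and -0.41 at MII 3W, and Ube2m at -1.27 and 3.02 at those stages. Ube2d2a went from -0.49 at FGO 3W to 0.44 at FGO 4W, and Ube2o from -0.83 at FGO 4W to 1.03 at MII 3W, on the log2 scale. The changes of Ube2d2a and Ube2o were not called at these stages, nor was that of Ube2m at FGO 4W. At MII 3W Ube2o held 18.5, 19.9 and 17.9 CPM in WT and 28.7, 60.9, 46.0 and 17.8 CPM in CKO. Its 2 highest CKO values were those of replicates 2 and 3, rich in Rn18s-rs5.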

How the results depend on the processing

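Of the 105 calls of members over the 9 comparisons with any call, DESeq2 and 1 common dispersion each kept 103, the replicate block 98, RLE size factors 97, no filter on low counts 93 and leaving out the libraries rich in Rn18s-rs5 93. Limma kept 83 on log2(FPKM + 1) and 85 on log2(FPKM + 0.1), fits of each stage alone 34 of 49, and leaving out 1 library 798 of 979. Members called in CKO against WT at GO 2W numbered 3, and 6 without the libraries rich in Rn18s-rs5, 5 on log2(FPKM + 1), 6 on log2(FPKM + 0.1) and 10 with GO 2W alone. At FGO 3W the number was 4, and 10 without those libraries, 7 on log2(FPKM + 1) and 11 alone; at FGO 4W it was 10, and 19 without those libraries and 20 alone. In zygotes it was 16, and 3 with zygotes alone. The cause of these shifts was not tested. Ube2k from WT FGO 3W to MII 3W stood at 0.37 in edgeR and reversed to -0.23 and -0.24 on log2(FPKM + 1) and log2(FPKM + 0.1); Ube2dnl1 from WT MII 3W to zygote stood at 5.20 and, with each library left out in turn, at 0 to 5.76, with 0 without WT zygote replicate 2, the only library of those groups above 0 counts. Leaving out each library gave 2 to 3 members called at GO 2W, 1 to 2 at FGO 3W, 7 to 11 at FGO 4W, 13 to 16 at MII 3W and 11 to 16 in zygotes. It gave 10 to 17 with an unequal change among stages, 0 to 0 for WT FGO 4W against GO 2W, 15 to 19 for WT MII 3W against FGO 3W, 11 to 14 for WT zygotes against MII 3W and 3 to 11 for the unequal maturation change. With the replicate number as a block, 3, 3, 9, 19 and 14 members were called in CKO against WT in stage order, 15 with an unequal change among stages, 0, 21 and 12 between WT stages and 8 for maturation. FGO 3W has 2 libraries a genotype, and leaving 1 out assumes that the lone library varies like the other groups. Genes near 1 CPM, such as Ube2m and Ube2q1 in WT MII 3W oocytes, are limited by depth.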
